A study of Mus musculus with 3 samples.

Results

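Frizzled receptors are the 10 cell surface receptors, Fzd1 to Fzd10, through which cells receive Wnt proteins. All 10 genes were on the arrays, out of 27672 gene names, and were chosen by their symbol in the scanner files, which gave 16 probes of 60 bases. The tissue was otic placodal ectoderm, the thickened patch of head ectoderm that forms the inner ear, dissected from mouse embryos of 4 to 8 somites that had received no treatment. The double null placodes came from Fgf3-/-;Fgf10-/- embryos and the double heterozygote placodes from Fgf3+/-;Fgf10+/- embryos, so the controls also carried 1 null copy of each fibroblast growth factor gene. Each of 3 arrays held 1 pool of 10 double null placodes, labelled with Cy5, and 1 pool of 10 double heterozygote placodes, labelled with Cy3. The dyes were not exchanged on any array, so a dye effect of a probe and the genotype cannot be told apart.

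A Wnt protein binds the extracellular cysteine-rich domain of a Frizzled receptor. With the co-receptors Lrp5 and Lrp6 the receptor then stabilises β-catenin, which acts on genes together with Tcf and Lef factors, and without them it can signal through the planar cell polarity branch. In the head ectoderm, FGF signals induce the otic-epidermal precursor field, and Wnt signals from the neighbouring hindbrain favour otic over epidermal fate within it.

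The 60-base probes differed in where they lay. Shown are 4 probes without a stop codon in 2 of their 3 reading frames, a pair from paralogs because it shows how far the probes of related receptors can be told apart, and the probes of Fzd3 and Fzd5 because 1 crosses an intron and the other has a partner on the opposite strand. Capitals mark bases shared by the Fzd2 and Fzd7 probes, which cover the same stretch of these paralogs, and the other 2 are in lower case throughout.
Fzd2 probe 1: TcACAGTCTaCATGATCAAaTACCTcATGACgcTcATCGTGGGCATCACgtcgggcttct
Fzd7 probe 2: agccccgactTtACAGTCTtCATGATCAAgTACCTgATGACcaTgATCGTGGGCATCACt
Fzd3 probe 2: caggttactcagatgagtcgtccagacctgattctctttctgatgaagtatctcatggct
Fzd5 probe 1: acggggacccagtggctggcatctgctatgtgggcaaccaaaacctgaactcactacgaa
The Fzd2 and Fzd7 probes overlapped by 50 bases, of which 42 were identical, and the longest identical run was 14 bases. On the mouse build mm7 of the files, they lay at chr11:102715340-102715399 and chr1:59735681-59735740, both on the plus strand. The Fzd3 probe spanned chr14:60072091-60094840 on the minus strand, 22750 bases of genome for 60 bases of probe, so it crossed an intron. The Fzd5 probe lay at chr1:64977126-64977184 on the minus strand. Where a gene had 2 probes, probe 1 is the brighter one. Where each probe lies relative to the coding sequence was not analysed here.

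Every gene of the family had a probe with signal in the dissected tissue. Markers of hindbrain and neural crest also had signal there (13 of 13 and 10 of 10 listed genes). Which cells gave the Frizzled signal was not tested. Of all 41174 probes, 24434 carried the scanner software's mark for a signal clearly over background in both Cy5 and Cy3 on every array. Of the 16 Frizzled probes, 15 did, and these 15 covered all 10 genes. The exception was the second Fzd5 probe, from a cDNA clone, which was above background in neither channel on any array. It ran on the plus strand of chromosome 1, 3719 bases from the Fzd5 probe shown above, which ran on the minus strand. Its signals were 62.2, 61.3 and 63.2 in the double null channel, where the local background was 66.5, 56 and 62. In the double heterozygote channel they were 43.2, 45.6 and 52, over a background of 46.5, 43.5 and 49. The brightness of different probes depends on their sequence and is not compared between genes.

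None of the Frizzled genes differed between the genotypes past the threshold. In limma's fit across 25500 probes, 0 of the 15 Frizzled probes tested had an adjusted p under 0.05, and 1 had an unadjusted p under 0.05. Over all probes 1.48% passed the adjusted threshold (0.282% as lower, 1.2% as higher) and 20.2% the unadjusted one. In a fit limited to a mean log2 intensity up to 15, where all tested Frizzled probes lay, 16 of 24743 probes passed, all higher. All ratios are double null over double heterozygote on the log2 scale. The median ratio of the 15 probes was -0.034, against 0.01 over all tested probes, with 9 below 0 and 6 above. Their absolute ratio was under 0.1 in 13 of 15, compared with 64.2% of all tested probes, and its median was 0.055, against 0.072. The 95% interval of 14 probes lay within 1.5-fold in either direction, and the exception was the second Fzd2 probe.

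**Figure D1:**
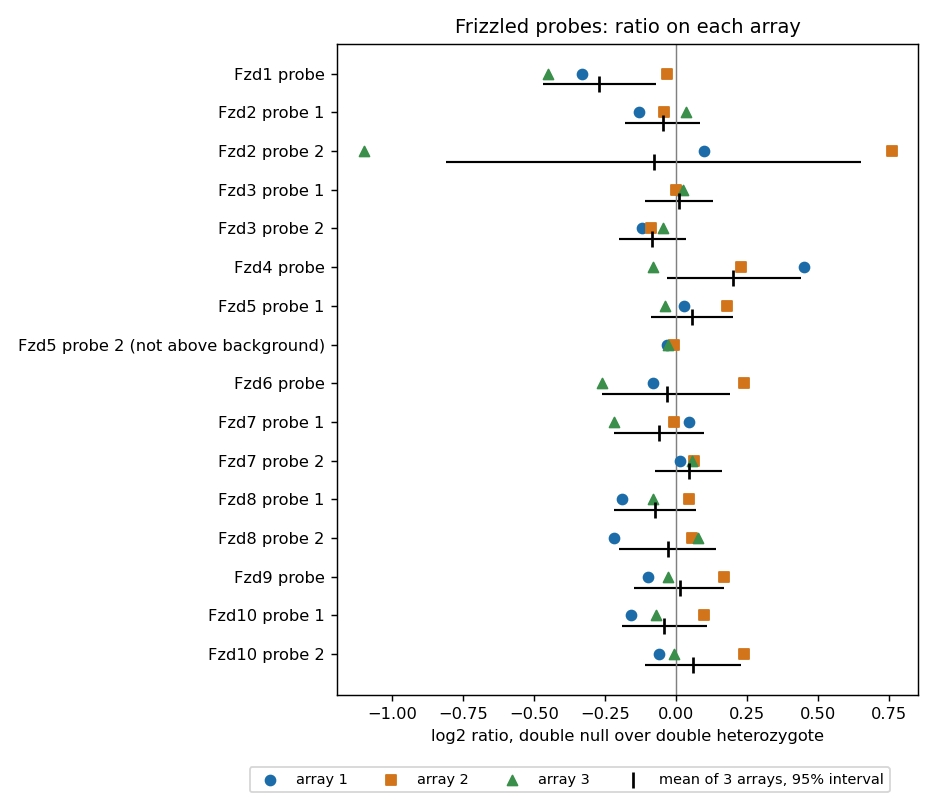
Log2 ratio of double null over double heterozygote for the 16 Frizzled probes on each of 3 arrays (symbols), with the mean and the 95% interval of limma's fit under them for the 15 probes tested. Fzd1 lies below 0 on all arrays, and the second Fzd2 probe spreads from -1.10 to 0.76.

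Fzd1, Fzd2 and Fzd7 form a subfamily that can signal through β-catenin, and Fzd1 and Fzd2 act together in closure of the mouse palate. Fzd1 had the lowest ratio of the family. Its normalized intensity, in arbitrary units, was 3660, 3845 and 3782 in the double null pools, against 4606, 3936 and 5162 in the double heterozygote pools. The 3 double null pools lay close together and below every double heterozygote pool. Among the 15 probes this was the only one whose groups did not overlap, and 16.4% of all tested probes had such groups. The array ratios were -0.33, -0.034 and -0.45, with a mean of -0.27 ± 0.083 (SE, n = 3), a fold of 0.829. The 95% interval ran from -0.47 to -0.071, and the limma p was 0.0154 before and 0.158 after adjustment. Array 2 gave nearly no difference, and the mean was -0.39 without replicate 2 and -0.18 without replicate 3 (limma adjusted p = 0.0877 and 0.369). Of all tested probes 3.93% had a larger absolute ratio. The single Fzd1 probe lay at chr5:4760009-4760068 on the minus strand, so no second probe was available to set beside it.

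The medians of several marker lists of the tissue and its neighbours also differed between arrays, while the median of the endoderm list hardly did. The otic placode list had array medians of -0.45, -0.12 and -0.30, the surface ectoderm list -0.21, -0.0082 and -0.077, and the hindbrain list -0.14, -0.015 and -0.23, each with array 2 nearest to 0. The neural crest list had -0.029, 0.07 and -0.26, the head mesoderm list 0.039, -0.069 and -0.0014 and the endoderm list -0.13, -0.15 and -0.12. Some single endoderm genes did differ between arrays, with Cldn4 at -1.74, 0.17 and -0.79 and Hhex at 0.86, -0.058 and 0.21. Sox17 was below 0 on each array, at -0.38, -0.61 and -0.62. In limma's fit, 2 of 13 otic placode genes and 1 of 8 endoderm genes passed the threshold, all lower. In the surface ectoderm, hindbrain, neural crest and head mesoderm lists 0 genes passed. An unadjusted limma p under 0.05 was found for 10 of 13 otic placode and 4 of 8 endoderm genes. It was found for 3 of 12 surface ectoderm, 5 of 13 hindbrain, 2 of 10 neural crest and 4 of 11 head mesoderm genes. Of all tested probes 20.2% had such a p. The otic placode list includes Spry1 and Etv4, which respond to FGF signals. In bulk tissue, fewer cells of a type and less RNA per cell cannot be told apart. The part of these markers in the Fzd1 ratio was not tested.

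The 2 Fzd2 probes gave different pictures. Probe 1 had intensities of 17877, 18525 and 17266 in double null pools and 19558, 19083 and 16876 in double heterozygote pools. These groups overlapped, and the mean ratio was -0.046 ± 0.055 (SE, n = 3; limma adjusted p = 0.668). Probe 2, 1372 bases further along chromosome 11 and from another cDNA, had 1171, 1493 and 594 in double null pools and 1094, 879 and 1272 in double heterozygote pools. The highest and the lowest of these 6 values were both double null pools. Its array ratios of 0.098, 0.76 and -1.10 averaged -0.079 ± 0.31 (SE, n = 3; limma adjusted p = 0.911), and without replicate 3 the mean turned to 0.43. The SD over arrays was 0.94, against 0.081 for probe 1 and a median of 0.089 over all tested probes. Only 0.0784% of tested probes, or 20, varied more. The scanner software's own spot test, which uses an error model of single spots, gave p under 0.01 for this probe on 2 of 3 arrays and for 0 of the other 45 Frizzled spots. Over all non-control spots the share was 1.38%.

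Fzd7, which carries Wnt signals in early embryonic cells, was nearly level in both genotypes. Probe 1 had 6834, 6806 and 7184 in double null pools and 6625, 6839 and 8379 in double heterozygote pools, with array 3 apart from the other two. Its mean ratio was -0.061 ± 0.066 and that of probe 2 was 0.044 ± 0.049 (SE, n = 3; limma adjusted p = 0.636 and 0.646). The 2 probes, 1765 bases apart, thus differed in sign, and both intervals included 0. The difference between them was not tested.

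**Figure D2:**
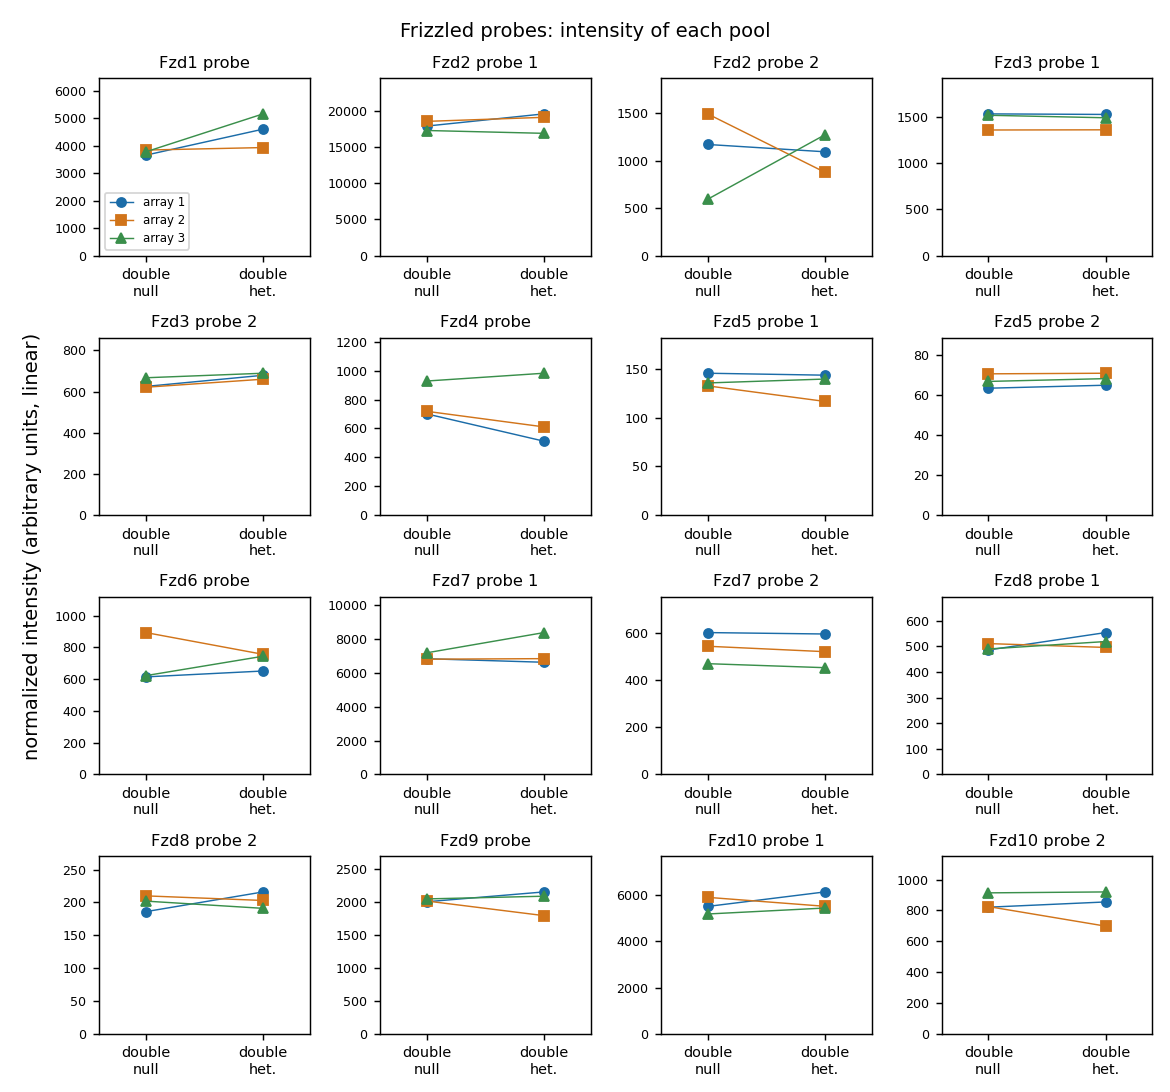
Normalized intensity (linear, arbitrary units) of each Frizzled probe in the double null and double heterozygote pool of each array, joined by array. The groups overlap in every panel except Fzd1, where the double null pools have 3660 to 3845 and the double heterozygote pools 3936 to 5162.

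Fzd4, Fzd9 and Fzd10 make up another subfamily. Fzd4 is also the receptor of Norrin, a ligand outside the Wnt family that acts on vessels of the retina and the inner ear. It had the highest ratio of the 15 probes, with intensities of 701, 719 and 929 in double null pools and 512, 611 and 983 in double heterozygote pools. Both pools of array 3 were above all the others, and the groups overlapped. The array ratios were 0.45, 0.23 and -0.082, with a mean of 0.20 ± 0.098 (SE, n = 3) and a 95% interval from -0.034 to 0.44. The limma p was 0.0823 before and 0.305 after adjustment, and the mean was 0.076 without replicate 1 and 0.34 without replicate 3 (limma adjusted p = 0.717 and 0.195). Fzd4 is known in endothelium, and the blood and endothelium list had array medians of 1.19, -0.026 and 0.22. Of that list 8 of 13 genes were tested, all with a mean ratio above 0 and 0 past the threshold (4 at unadjusted limma p under 0.05), and those that did not pass the signal filter included Gata1, Pecam1 and Tie1. Its summed intensity ranged from 6125 to 12509 in double null pools and from 5837 to 7001 in double heterozygote pools. This sum joins blood and endothelial genes, which differed on array 3. The globin gene Hbb-bh1 had array ratios of 1.43, -0.51 and 2.69. The endothelial genes Kdr and Cdh5 had 1.16, -0.26 and 0.18, and 1.45, 0.42 and 0.14. The part of these cells in the Fzd4 ratio was not tested.

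Fzd9, a receptor first studied in brain and bone, had 2005, 2016 and 2048 in double null pools and 2154, 1794 and 2089 in double heterozygote pools. The double null pools lay inside the range of the double heterozygote pools. Its mean ratio was 0.012 ± 0.066 (SE, n = 3; limma adjusted p = 0.939), with a 95% interval from -0.15 to 0.17. Fzd10 was measured by 2 probes 883 bases apart, with mean ratios of -0.043 ± 0.063 and 0.058 ± 0.07 (SE, n = 3; limma adjusted p = 0.739 and 0.682). Both Fzd10 probes had their highest ratio on array 2, at 0.098 and 0.24. Probe 1 had 5509, 5903 and 5182 in double null pools, and 6137, 5516 and 5440 in double heterozygote pools.

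Fzd3 and Fzd6 act in planar cell polarity, and together they orient the hair bundles of the mouse inner ear. Fzd3 probe 1 was the steadiest of all Frizzled probes. Its double null pools had 1531, 1357 and 1516 and its double heterozygote pools 1525, 1359 and 1489, so that the 2 pools of each array nearly coincided. The mean ratio was 0.0096 ± 0.048 (SE, n = 3; limma adjusted p = 0.934), and 98.1% of all tested probes varied more between arrays. Fzd3 probe 2, which crosses an intron, was below 0 on all 3 arrays (-0.12, -0.089 and -0.048), with a mean of -0.085 ± 0.049 (SE, n = 3; limma adjusted p = 0.376). A further probe, named D930050A07Rik in the files and listed by RefSeq as an older name of Fzd3, lay 9642 bases beyond probe 1 on the same strand. It was not counted among the 16, and its ratio was -0.0022 ± 0.049 (SE, n = 3; limma adjusted p = 0.985).

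Fzd6 varied more between pools than Fzd3. It had 614, 893 and 622 in double null pools and 651, 756 and 744 in double heterozygote pools, with the double null pool of array 2 above all others. The array ratios were -0.083, 0.24 and -0.26, with a mean of -0.034 ± 0.094 (SE, n = 3; limma adjusted p = 0.871) and a 95% interval from -0.26 to 0.19.

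Fzd5 and Fzd8 form the fourth subfamily, and Fzd5 is needed for eye development in the mouse. The tested Fzd5 probe had low signal. Its double null pools had 146, 133 and 136 and its double heterozygote pools 144, 117 and 140, and the mean ratio was 0.055 ± 0.06 (SE, n = 3; limma adjusted p = 0.641). Because 50 units were added to both channels in background correction, a difference of so dim a probe is compressed. With the scanner's processed signals, which add nothing, the ratio was 0.13. A probe named AI427138 in the files, listed by RefSeq as an older name of Fzd5, lay 2716 bases from it on the same strand. It was above background on 2 of 3 arrays in each channel and was not tested.

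Fzd8 probe 1 had 486, 511 and 490 in double null pools and 554, 496 and 519 in double heterozygote pools, and these overlapped. The mean ratios of its 2 probes, 3150 bases apart, were -0.076 ± 0.061 and -0.029 ± 0.072 (SE, n = 3; limma adjusted p = 0.523 and 0.85). Both had their lowest ratio on array 1, at -0.19 and -0.22.

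The arrays differed in how many members lay above 0. On array 2, 10 of the 15 probes were above 0, against 6 on array 1 and 4 on array 3. The family medians were -0.083, 0.064 and -0.048, where those of all tested probes were 0.013, 0.0093 and 0.0092. Only 3 of 15 probes, of Fzd1, Fzd3 and Fzd7, had 1 sign on all 3 arrays, against 43.8% of all tested probes. The median SD over arrays was 0.14, compared with 0.089 over all tested probes. By subfamily, ratios ran from -0.27 to 0.044 for the 5 probes of Fzd1, Fzd2 and Fzd7 and from -0.043 to 0.20 for the 4 of Fzd4, Fzd9 and Fzd10. They ran from -0.085 to 0.0096 for the 3 probes of Fzd3 and Fzd6 and from -0.076 to 0.055 for the 3 of Fzd5 and Fzd8. In order of ratio, Fzd1 stood lowest and Fzd4 highest, and the intervals of all probes except Fzd1 included 0. The difference between Fzd1 and Fzd4 was not tested.

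**Figure D3:**
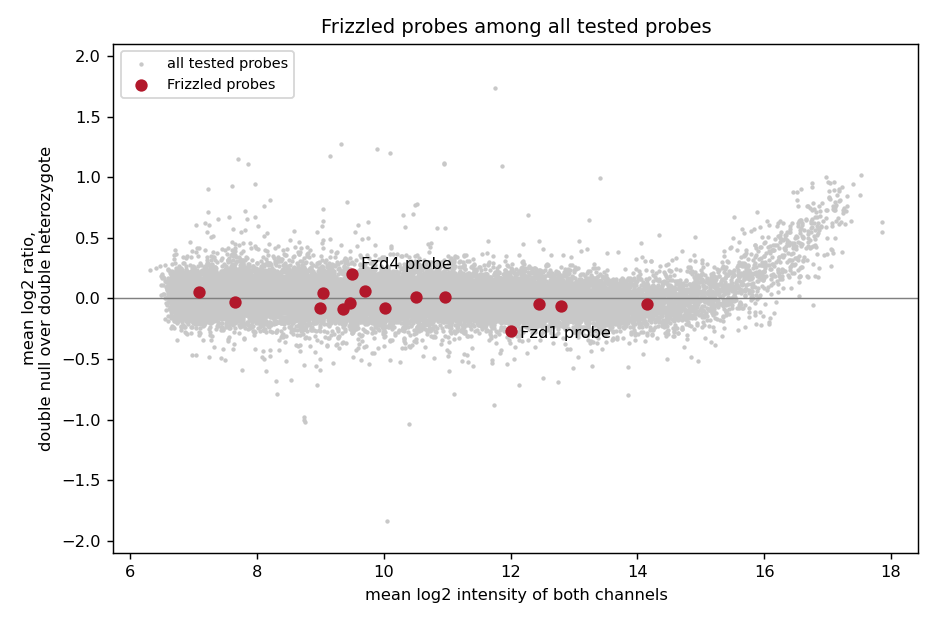
Mean log2 ratio of double null over double heterozygote against mean log2 intensity for the 25500 tested probes (grey) and the 15 Frizzled probes (red). The Frizzled probes lie between -0.27 (Fzd1) and 0.20 (Fzd4) and all below an intensity of 15.

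The genes that work with the receptors were examined as 7 lists holding 113 genes, of which 98 passed the signal filter. Each gene was taken by its brightest probe. Of the 98, 2 were lower in the double null and 0 higher, against 1.88% of all genes called in either direction. The 2 of 98 called are a share near that of all genes. Lef1, a DNA-binding partner of β-catenin, fell by 0.30 on the log2 scale, to 0.812 of the double heterozygote level (SE 0.049, n = 3; limma adjusted p = 0.0432), with array ratios of -0.27, -0.32 and -0.31. Its second probe was at -0.0026. Ccnd1, a cyclin of the cell cycle and a target of several pathways including FGF, fell by 0.33 (SE 0.053, n = 3; limma adjusted p = 0.0428), with -0.39, -0.34 and -0.25. Both calls ended when any 1 array was left out, with adjusted p from 0.0941 to 0.182, and with the processed signals (0.209 and 0.214). With the processed signals 0 of all 25500 tested probes passed, so the loss of these calls there was not particular to them. The ratios themselves moved little. With 1 array left out they ran from -0.31 to -0.29 for Lef1 and from -0.37 to -0.30 for Ccnd1, and with the processed signals both were -0.30. With median centring the ratios of Lef1 and Ccnd1 were 0.19 and 0.28, where the median of all tested probes was 0.33.

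Ligands were measured for 19 of 22 listed genes, and 0 passed in either direction, with a median of -0.0078. Wls, needed to secrete Wnt proteins, was at 0.061 and Wnt6, a ligand of surface ectoderm, at -0.0098 (limma adjusted p = 0.651 and 0.95). Ndp, which encodes Norrin, was at 0.18 (limma adjusted p = 0.133), and Tspan12, which helps Fzd4 respond to Norrin, at -0.16 (limma adjusted p = 0.217). These 2 were singled out for their tie to Fzd4 after their values were seen. Co-receptors and other receptors had 0 of 11 past the threshold and a median of -0.066. The brightest were the Hedgehog transducer Smo, a relative of the Frizzleds, at -0.082 and the proteoglycan gene Gpc3 at -0.16.

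Secreted antagonists had 0 of 11 past the threshold and a median of 0.028. Sfrp1 and Sfrp2, whose proteins carry a Frizzled-like domain and bind Wnt, were at 0.15 and -0.11 (limma adjusted p = 0.384 and 0.394), and a second Sfrp1 probe was at -0.35. The list of R-spondins, their Lgr receptors and other genes grouped under Frizzled turnover had 0 of 9 past the threshold and a median of -0.054. Among its genes, Lgr4, a receptor of R-spondins, was at -0.054 and Tmem59 at -0.084.

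Inside the cell, the β-catenin branch had 1 of 20 lower, which was Lef1, and a median of -0.046. The polarity and calcium branch had 0 of 19 past the threshold and a median of -0.009, with the scaffold gene Scrib at 0.099 and Celsr1, an atypical cadherin that binds Frizzled complexes across cells, at -0.073. Canonical targets, several of which also stand in other Wnt lists, had the lowest median of the 7 Wnt lists, -0.12. Of 17 genes, 14 were below 0 and 2 were lower past the threshold. Over all tested probes 46.1% were below 0 and 0.282% were called lower. Axin2 was level at -0.0094, and the largest absolute ratio of the list was that of Dkk1, above 0 at 0.36 (limma adjusted p = 0.937 and 0.0812). Of the lists outside the pathway, otic placode, hindbrain and surface ectoderm genes were also mostly below 0 (12 of 13, 12 of 13 and 10 of 12). Their medians were -0.23, -0.18 and -0.11. Neural crest and endoderm genes had 7 of 10 and 6 of 8 below 0, with medians of -0.094 and -0.13. Head mesoderm had 5 of 11 below 0 (median 0.028) and blood and endothelium 0 of 8 (median 0.56). The negative median of the canonical target list was already known when the lists were chosen.

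**Figure D4:**
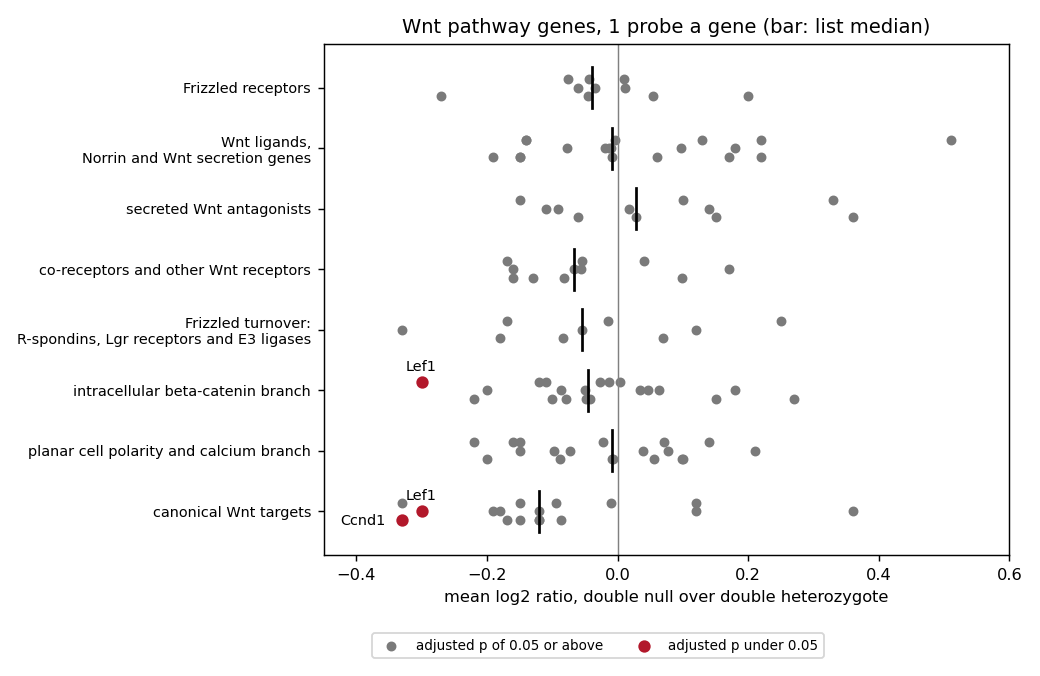
Mean log2 ratio of double null over double heterozygote for the tested genes of the Frizzled family and of 7 Wnt pathway lists, with 1 probe a gene and bars at the list medians. Red points, Lef1 and Ccnd1, have an adjusted p under 0.05; Lef1 stands in 2 lists.

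The Frizzled ratios depended on how the channels were aligned. With median centring in place of loess, the median of all tested probes moved to 0.33 and 11 of 15 Frizzled probes passed as higher, as did 17191 of 25500 probes. Relative to that median, Fzd1 was at -0.11, Fzd4 at 0.19 and Fzd2 probe 1 at 0.30, while the dim Fzd5 probe was at -0.41. In the other 16 alternatives, 0 Frizzled probes passed.

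**Figure D5:**
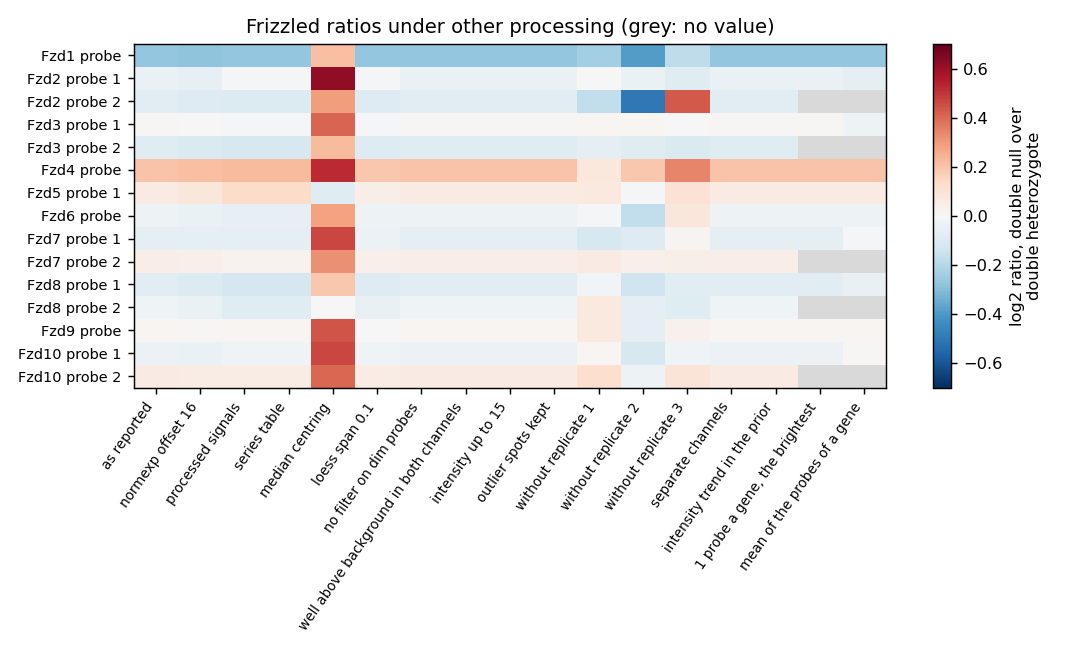
Log2 ratio of double null over double heterozygote (colour) of the 15 Frizzled probes as reported and under 16 other ways of processing. Fzd4 is positive in every column, and Fzd1 is negative in every column except median centring, where Fzd1 is at 0.21.

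The arrays as a whole had between 27284 and 29177 spots well above background in the double null channel and between 26452 and 28258 in the double heterozygote channel. The targeted genes were at -0.48 ± 0.12 for Fgf3 (-0.69, -0.064 and -0.69 on the 3 arrays) and 0.14 ± 0.085 for Fgf10 (SE, n = 3; limma adjusted p = 0.121 and 0.386). The position of these probes within the null alleles was not examined, so they do not check the genotypes. Otic placode markers had signal, with 13 of 15 listed genes tested, 12 below 0 and 2 lower past the threshold, against 46.1% of all tested probes below 0 and 0.282% called lower. Of these genes Spry1 and Etv4, at -0.20 and -0.39, respond to FGF signals, and neither passed the threshold. Pax2 did not pass the signal filter. The summed intensity of the list, in which bright probes weigh most, was 24539 to 27112 in double null pools and 31057 to 36178 in double heterozygote pools. Sox9, taken by the brightest probe of the list and 1 of the 2 genes called, was at -0.69 (limma adjusted p = 0.0473). Its other probes were at -0.40 and -0.004.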

How the data were processed

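The arrays were read with Agilent Feature Extraction 9.5.1.1, per the submitters' processing notes. Per the file headers, the deposited scanner output gives each spot's mean intensity and local background intensity, the software's processed intensity, its log10 ratio of Cy5 over Cy3 with an error and p-value per spot, and quality marks. The series table, as the authors deposited it, gives log2 ratios that equalled the log10 ratios within 2.01e-06 after conversion. This settled their scale and that they are Cy5 over Cy3. The match does not show which genotype carried which dye.

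Background was corrected with normexp (offset 50), and loess normalized the log2 ratios of each array (span 0.3, control spots at weight 0). Outlier spots, 143 to 175 per array, were left out. A probe was tested if well above background in Cy5 on all 3 arrays or in Cy3 on all 3, which left 25500 of 41174 probes. limma 3.58.1 in R 4.3.3 tested the mean ratio against 0 (intercept only, prior degrees of freedom 4.54), with Benjamini-Hochberg adjustment over all probes at 0.05. Intensities per pool were scaled between arrays by Aquantile. The fit was tested on simulated ratios. The number of arrays limits the precision.

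Members were matched by the symbol in the files, since RefSeq (GRCm38.p6, names only) lists Fzd10 as an older name of Fzd2. All 16 probes kept their name in RefSeq, 12 by accession and 4 by symbol. The rule named all Frizzled probes, up to 4 called genes of each Wnt list and otherwise its 2 brightest. Members and lists were chosen with earlier results of these data known. Alternatives covered background, normalization, filters, channels, prior, probes of a gene, threshold and each array left out.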

Additional observations from a re-analysis of the deposited data

How the results depend on the processing

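No Frizzled probe passed in 16 of 17 alternatives, the exception being median centring, with 11 passing and a median of 0.32. It put Fzd1 at 0.21, Fzd2 at 0.62 and 0.29, Fzd3 probe 2 at 0.22, Fzd5 at -0.083, Fzd6 at 0.28, Fzd7 probe 1 at 0.47, Fzd8 at 0.19 and 0.0028 and Fzd10 probe 1 at 0.47, each opposite in sign to the reported ratio. Fzd3 probe 1 turned to -0.014 with the processed signals and the series table, to -0.0076 with loess of span 0.1 and to -0.038 with the mean of a gene's probes, where Fzd10 was at 0.0075. With 1 array left out the ratio crossed 0 for Fzd2 probe 2 (-0.50 to 0.43), Fzd5 (-0.0073 to 0.10), Fzd6 (-0.17 to 0.079), Fzd7 probe 1 (-0.11 to 0.019), Fzd8 probe 2 (-0.083 to 0.066), Fzd9 (-0.066 to 0.07), Fzd10 probe 1 (-0.11 to 0.014) and Fzd10 probe 2 (-0.034 to 0.12). The 377 calls over all probes (80.9% higher) became 198 with an offset of 16 (90.4% higher), 10 with span 0.1 (100% higher), 16 up to intensity 15, 990 with an intensity trend, 1076 at adjusted p under 0.10, 19473 with median centring and 87 to 305 leaving out single arrays (87 for replicate 3, 228 for replicate 2). limma called 0 with the processed signals (4415 at unadjusted p under 0.05) and, with the series table, again 0 (4467 unadjusted). Each array pairs 1 pool of each genotype, and separate channels with no replicate block gave 185 calls. Of 98 Wnt pathway genes, the 2 calls became 74 with median centring, 4 with an intensity trend, 1 with no filter on dim probes, 1 with the mean of a gene's probes, and 0 with an offset of 16, processed signals, series table, span 0.1, intensity up to 15, separate channels and any 1 array left out (0 to 0; 20 to 27 genes at unadjusted limma p under 0.05). The cause of these differences was not tested.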

Other observations

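The 20 tested probes that varied more between arrays than the second Fzd2 probe (array ratios 0.098, 0.76 and -1.10) included 3 probes of Xist, probes of the Y-linked genes Eif2s3y and Ddx3y, and 2 probes of the embryonic globin gene Hbb-bh1. Eif2s3y was at -0.65, 1.97 and -0.31 and 1 Hbb-bh1 probe at 1.43, -0.51 and 2.69. Others were the signalling gene Lefty1, at 0.74, -2.46 and 2.54, the midbrain gene En2, at 1.57, -1.15 and -0.30, and Tmem87a, at 0.38, 1.00 and -1.18. These genes were named after their values were seen.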
